A study of Homo sapiens with 4 samples.

Results

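Catecholamine synthesis, storage and breakdown was examined through 9 genes, TH, DDC, DBH, PNMT, SLC18A1, SLC18A2, SLC6A2, MAOA and MAOB, in SH-SY5Y human neuroblastoma cells after silencing of TSPAN8, which encodes a membrane protein of the tetraspanin family. All probe sets that the platform annotation assigns to these symbols alone were taken, which gave 23 of the 54613 probe sets tested and 9 of the 19775 genes named on the array. Cells with TSPAN8 knockdown (2 arrays) were compared with transfection control cells (2 arrays), all SH-SY5Y, the knockdown made with small interfering RNA of the Accell self-delivering system and RNA taken at 72 h in both groups. The sources used here do not give what the control cells received. They also do not say whether a group's 2 samples were separate cultures, so a p-value here may reflect technical spread alone.

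Sympathetic neurons and chromaffin cells make catecholamines from tyrosine in a fixed order of steps. TH, the rate-limiting enzyme, hydroxylates tyrosine to L-DOPA, DDC removes the carboxyl group to give dopamine, DBH converts dopamine to noradrenaline inside vesicles, and PNMT methylates noradrenaline to adrenaline. SLC18A1 and SLC18A2 are the vesicular monoamine transporters that load the vesicles, SLC6A2 is the noradrenaline transporter that takes released transmitter back up, and MAOA and MAOB, enzymes of the outer mitochondrial membrane, oxidise amines in the cytosol.

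No probe set of the 9 genes passed the test over all probe sets (limma, 0 of 23 at an adjusted p under 0.05, adjusted p from 0.603 to 0.993), where 0.00183% of all probe sets passed. The single probe set that passed was that of TSPAN8, at 6.25 and 6.35 in knockdown cells, against 7.52 and 7.62 in control cells (difference -1.27 ± 0.062, SE; limma, adjusted p = 0.0026). Values are given in the order of replicates 1 and 2, on the deposited log2 scale, and all differences are knockdown minus control on that scale. DBH had the largest difference of the 9 genes, at -0.35, and the probe set of SLC6A2 and that of MAOA with the largest difference stood at 0.18 and 0.19. At an unadjusted p under 0.05 there were 2 of 23 probe sets (8.7%), 1 higher and 1 lower, against 7.83% of all probe sets (3.72% higher and 4.12% lower), so the share was near the background. The arrays of the groups did not overlap for 11 of 23 probe sets (47.8%), 6 higher and 5 lower, against 37.5% of all probe sets (17.7% higher and 19.8% lower). With 2 arrays against 2, an exact two-sided permutation test of a single value cannot give a p below 0.333.

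The signal of the 9 genes ran from near the bottom of the arrays to near the top. By the brightest probe set of each gene, called its leading probe set here, the percentile among all probe sets on control replicates 1 and 2 was 98.8 and 98.8 for DBH, 95.6 and 95.5 for DDC, 94.2 and 93.6 for SLC6A2, 86.6 and 85.5 for SLC18A1, 79.2 and 78.3 for MAOA, 65.2 and 65.7 for PNMT, 58.9 and 60.0 for MAOB, 40.0 and 39.4 for SLC18A2 and 20.5 and 16.2 for TH. Probes differ in brightness, so this is an order of signals and not of transcript amounts. The 8 probe sets of SLC6A2 alone had control means from 6.35 to 10.36. As a yardstick for a dim signal, 45 probe sets of 28 genes restricted to other organs (liver, pancreas, muscle, testis, eye and others) had control means from 5.49 to 7.06, with a median of 6.13. Of the 23 probe sets, 12 lay above that whole range in control cells and 11 within it, and 6 of the 9 genes had at least 1 probe set above it. The 3 genes without one were TH, SLC18A2 and MAOB.

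**Figure D1:**
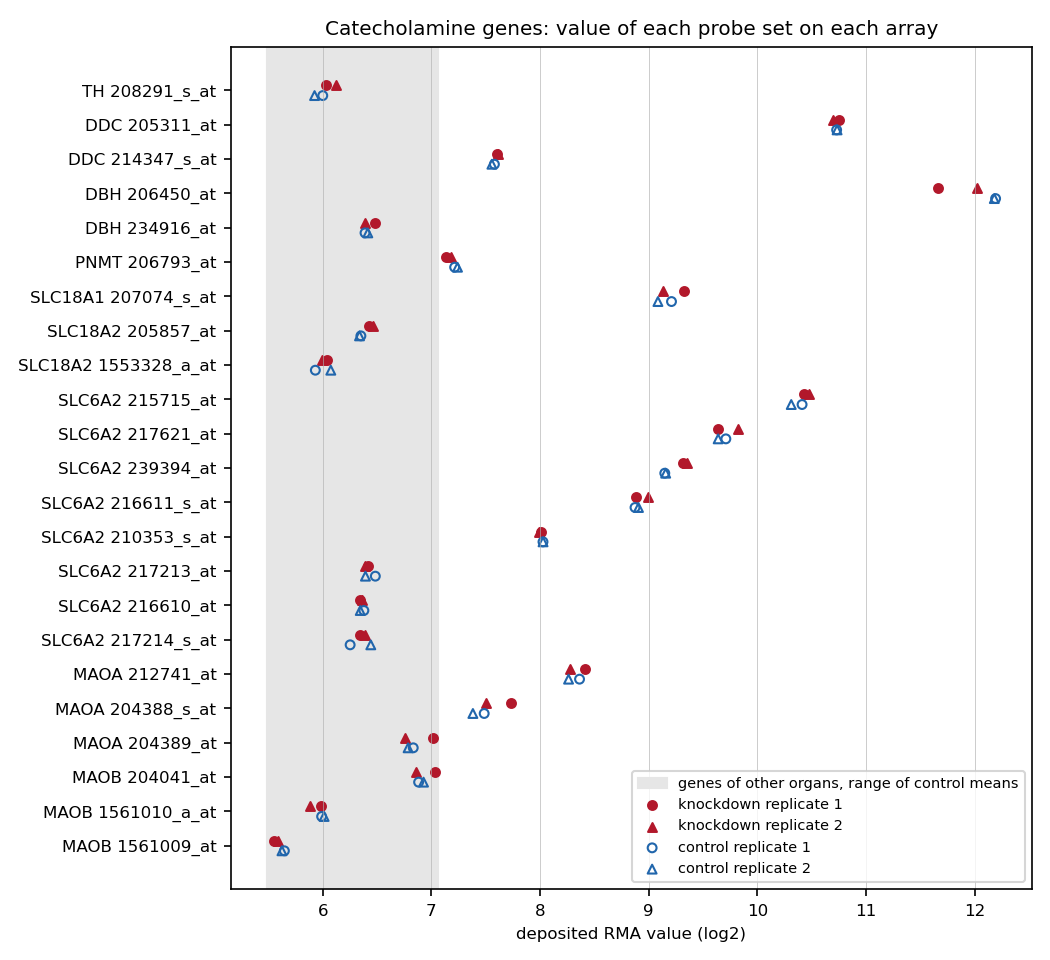
Deposited log2 value (x axis) of each of the 23 probe sets (rows) on the 2 knockdown arrays (filled) and the 2 control arrays (open); the grey band spans the control means, 5.49 to 7.06, of 45 probe sets of genes restricted to other organs. The 2 filled points of DBH 206450_at lie apart from each other and below both open points, and TH lies inside the band.

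The labelled cell type was checked against its markers. All 10 measured markers of noradrenergic neuroblasts had a leading probe set above the range of the genes restricted to other organs, from HAND2 at 7.68 and 7.64 on the control arrays to STMN2, a neuronal microtubule regulator, at 13.14 and 13.24. Of the 3 cholinergic markers 0 lay above it, and of 6 Schwann cell or melanocyte markers 1 did (MITF). Of 12 mesenchymal or fibroblast markers 9 lay above it. The arrays' medians were between 6.58 and 6.61, and Pearson's r between any 2 arrays over probe sets, a description only since probe sets are no replicates, was from 0.9973 to 0.9984. The lowest values, 0.9973 and 0.9975, were those of knockdown replicate 1 with the control arrays.

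TH, the first enzyme of the pathway, had values of 6.03 and 6.12 in knockdown cells, against 6.0 and 5.92 in control cells. Its single probe set was thus within the range of genes of other organs, 32 of whose 45 probe sets were brighter in control cells. Both knockdown values were above both control values, but the gap between the groups, 0.034, was smaller than the distances within the knockdown pair (0.087) and the control pair (0.076). The difference was 0.12 ± 0.058 (SE) and did not pass (limma, adjusted p = 0.67). The 95% interval of -0.020 to 0.25 bounds the change of this signal, background included, and not that of TH messenger RNA.

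DDC, which makes dopamine, was bright and nearly equal on the 4 arrays. The leading probe set, 205311_at, read 10.75 and 10.69 in knockdown cells, against 10.73 and 10.73 in control cells. The groups overlapped, and the difference was -0.012 with a 95% interval of -0.13 to 0.11 (limma, adjusted p = 0.99). This interval leaves room for 91.2% to 108% of the control signal. The other probe set, 214347_s_at, had a difference of 0.037 with an interval of -0.081 to 0.16.

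DBH, the noradrenaline-forming enzyme, was the brightest of the 9 genes. At its leading probe set, 206450_at, knockdown replicates 1 and 2 read 11.66 and 12.02, and control replicates 1 and 2 read 12.19 and 12.18. The 2 control arrays agreed within 0.012, both knockdown arrays were below them, and the 2 knockdown arrays were 0.36 apart, more than the 0.16 between the nearer knockdown array and the controls. Against the control mean, knockdown replicate 1 was at -0.53 and knockdown replicate 2 at -0.17. The group means were 11.84 ± 0.26 and 12.19 ± 0.0083 (SD, n = 2 each) in knockdown and control cells. The difference was -0.35 ± 0.10 (SE), with a 95% interval of -0.59 to -0.10, or 78.7% of the control signal (66.5% to 93.0%), and it missed the threshold (limma, adjusted p = 0.60). Of all probe sets, 117 (0.214%) had a difference of this size or more in either direction. Without knockdown replicate 2 the value was -0.53 with an adjusted p of 0.00015 (limma), in a fit in which 1026 probe sets passed and the lone knockdown array is assumed to vary like the controls. Without knockdown replicate 1 it was -0.17 (limma, adjusted p = 0.57). The second probe set of DBH, 234916_at, was dim, at 6.49 and 6.39 in knockdown cells, against 6.39 and 6.41 in control cells, inside the range of genes of other organs, with a difference of 0.037 ± 0.056 (SE).

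The DBH promoter is shown because this gene had the largest difference of the 9. It lies in the human genome at chr9:133636113-133636362 on the plus strand (RefSeq, GRCh38.p14), the 250 bases before the annotated start. Capitals mark matches on either strand to TGACG (reverse CGTCA), the core of the cAMP response element, and to ATTA (reverse TAAT), the core that homeodomain proteins such as PHOX2A bind. It is printed 5′ to 3′.
DBH: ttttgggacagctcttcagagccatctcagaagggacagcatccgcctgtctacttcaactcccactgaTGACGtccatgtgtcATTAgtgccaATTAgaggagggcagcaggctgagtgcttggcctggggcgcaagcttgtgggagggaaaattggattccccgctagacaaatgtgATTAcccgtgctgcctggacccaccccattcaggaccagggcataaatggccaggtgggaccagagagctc
TGACG was found once, with its first base at position -181 from the start, and ATTA 3 times, at -166, -156 and -71. Among 35116 promoter windows of this length in the RefSeq table, 21.2% held TGACG and 47.4% held ATTA on either strand. A match of these letters is a description and does not show binding. PHOX2A, the homeodomain factor of this cell type that is known to act at DBH, read 10.96 and 11.12 in knockdown cells, against 11.14 and 11.11 in control cells, which overlapped (difference -0.086 ± 0.066, SE; limma, adjusted p = 0.79).

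The mesenchymal or fibroblast markers were high as a list on knockdown replicate 1, on which DBH was lowest. Of the 12 mesenchymal or fibroblast markers, 11 were above both control arrays on knockdown replicate 1 and 5 on knockdown replicate 2. Their summed signal, on the linear scale over leading probe sets, was 21139 and 17073 on knockdown replicates 1 and 2, against 17889 and 16997 on the control arrays. VIM, the brightest of the 12, weighs most in this sum. It read 13.61 and 13.36 in knockdown cells, against 13.44 and 13.41 in control cells, which overlapped. The median deviation of the 12 markers from the control mean was 0.23 and 0.047 on the knockdown arrays, against 0.019 and -0.019 on the control arrays. How many of all genes were above both control arrays was not counted, so the counts of 11 and 5 have no background share. No marker of the mesenchymal list reads as 0 on this scale, and COL1A2, PRRX1 and CD44 were within the range of genes of other organs in control cells. The same median was -0.0036 and 0.053 on knockdown replicates 1 and 2 for the 6 Schwann cell or melanocyte markers, and 0.015 and 0.0002 for the 3 cholinergic markers. The part of the mesenchymal marker signal in the DBH value was not tested, and the arrays do not show whether that signal came from SH-SY5Y cells or from others. In bulk RNA, fewer cells that express a gene and less RNA of it in each cell cannot be told apart. The summed signal of the 10 noradrenergic markers was 47959 and 47000 in knockdown cells, against 48395 and 49640 in control cells. Their median deviation from the control mean was -0.083 and -0.060 on knockdown replicates 1 and 2, against -0.024 and 0.024 on the control arrays. The order of the 2 knockdown arrays thus differed between the sum and the median.

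**Figure D2:**
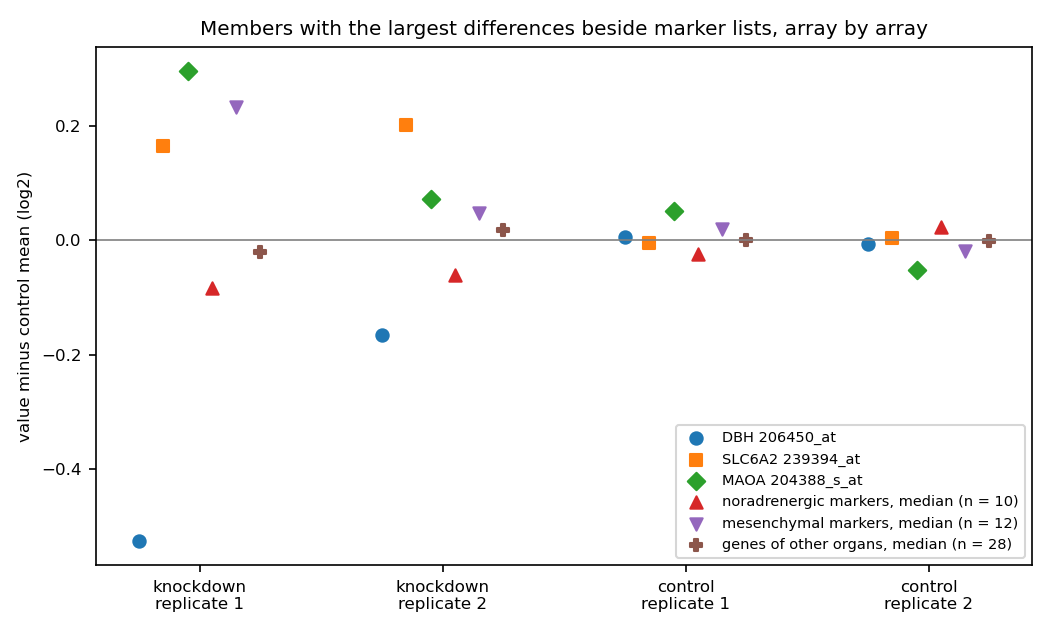
Value minus control mean (y axis, log2) on each of the 4 arrays for the probe sets of DBH, SLC6A2 and MAOA with the largest difference and, as medians over leading probe sets, for the noradrenergic markers, the mesenchymal markers and the genes of other organs. On knockdown replicate 1 DBH stands at -0.53, MAOA at 0.30 and the mesenchymal median at 0.23, while SLC6A2 is at similar heights, 0.17 and 0.20, on both knockdown arrays.

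PNMT, which forms adrenaline, read 7.13 and 7.18 in knockdown cells, against 7.21 and 7.24 in control cells. Both knockdown values were below both control values, by 0.034 at the nearest. The difference was -0.071 ± 0.052 (SE; limma, adjusted p = 0.78), smaller than DBH's and with a 95% interval of -0.19 to 0.050.

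The vesicular transporters had unequal signals. SLC18A1, the transporter typical of endocrine cells, read 9.33 and 9.13 in knockdown cells, against 9.21 and 9.09 in control cells. The arrays of each group were further apart, by 0.20 and 0.12, than the group means, whose difference was 0.081 ± 0.078 (SE; limma, adjusted p = 0.85). SLC18A2, the transporter typical of monoamine neurons, was dim at both of its probe sets. The leading one, 205857_at, read 6.43 and 6.46 in knockdown cells, against 6.35 and 6.34 in control cells. Its groups did not overlap, with 0.077 between the nearest arrays, and the difference was 0.099 ± 0.051 (SE; limma, adjusted p = 0.68). The other, 1553328_a_at, overlapped at a difference of 0.016. Both were inside the range of genes of other organs, of whose 45 probe sets 10 and 31 were brighter.

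SLC6A2, the reuptake transporter, had 8 probe sets, and 5 of them lay above the range of genes of other organs. The leading one, 215715_at, read 10.43 and 10.48 in knockdown cells, against 10.41 and 10.31 in control cells, with a difference of 0.090 ± 0.058 (SE; limma, adjusted p = 0.74). The probe set 239394_at had the smallest p of all 23. It read 9.32 and 9.35 in knockdown cells, against 9.15 and 9.16 in control cells. The arrays of each group agreed within 0.035 and 0.0083, and the groups were 0.16 apart at the nearest. Its difference was 0.18 ± 0.051 (SE), or 114% of the control signal (95% interval 105% to 123%), and did not pass (limma, adjusted p = 0.60). It kept between 0.17 and 0.20 with any 1 array left out, with an adjusted p of 0.32 or more. The leading set did not overlap between the groups either, higher in knockdown cells by 0.015 at the nearest arrays. The bright sets 217621_at and 216611_s_at overlapped, at differences of 0.052 and 0.046. The remaining bright set, 210353_s_at, differed by -0.026 and was at 8.01 and 7.99 in knockdown cells, against 8.03 and 8.03 in control cells. The dim sets 217213_at, 216610_at and 217214_s_at differed by -0.033, -0.0081 and 0.016. In all, 5 of 8 probe sets of SLC6A2 were above control.

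MAOA and MAOB, neighbouring genes on the X chromosome with related proteins, degrade amines. All 3 probe sets of MAOA had a mean above control. The set 204388_s_at read 7.73 and 7.51 in knockdown cells, against 7.49 and 7.38 in control cells. Its groups did not overlap, but the gap between them was 0.021, against distances of 0.22 within the knockdown pair and 0.10 within the control pair. The difference was 0.19 ± 0.080 (SE; limma, adjusted p = 0.64). Without knockdown replicate 2 it was 0.30 with an adjusted p of 0.034 (limma), in the fit in which 1026 probe sets passed, and without knockdown replicate 1 it was 0.073 (adjusted p = 0.88). The leading set 212741_at, at 8.42 and 8.27 in knockdown cells, against 8.36 and 8.26 in control cells, and the set 204389_at overlapped, with differences of 0.032 and 0.073. On each of the 3 sets knockdown replicate 1 was the highest array. The median deviation of the mesenchymal markers given above, 0.23, was also highest there, and the part of that signal in the MAOA values was not tested.

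MAOB was dim. Its leading set, 204041_at, read 7.04 and 6.86 in knockdown cells, against 6.88 and 6.93 in control cells, which overlapped (difference 0.041 ± 0.069, SE; limma, adjusted p = 0.94). This set lay near the top of the range of genes of other organs, with 1 of their 45 probe sets brighter in control cells. The sets 1561010_a_at and 1561009_at differed by -0.068 and -0.065, with no overlap between the groups, at control means of 6.0 and 5.64, where 32 and 44 of the 45 probe sets of other organs were brighter. The sign thus differed between the probe sets of MAOB.

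The promoters of MAOA and MAOB are shown side by side because the genes are neighbours with related proteins. They lie at chrX:43656049-43656298 on the plus strand and chrX:43882451-43882700 on the minus strand (RefSeq, GRCh38.p14), each the 250 bases before a start, printed 5′ to 3′. Capitals mark GGGCGG (reverse CCGCCC), the GC box, and ATTA (reverse TAAT).
MAOA: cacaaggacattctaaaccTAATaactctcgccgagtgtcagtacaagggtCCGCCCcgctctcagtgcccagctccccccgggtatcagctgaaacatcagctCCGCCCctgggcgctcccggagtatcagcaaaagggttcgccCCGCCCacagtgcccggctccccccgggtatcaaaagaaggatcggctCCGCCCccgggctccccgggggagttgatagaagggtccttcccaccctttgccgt
MAOB: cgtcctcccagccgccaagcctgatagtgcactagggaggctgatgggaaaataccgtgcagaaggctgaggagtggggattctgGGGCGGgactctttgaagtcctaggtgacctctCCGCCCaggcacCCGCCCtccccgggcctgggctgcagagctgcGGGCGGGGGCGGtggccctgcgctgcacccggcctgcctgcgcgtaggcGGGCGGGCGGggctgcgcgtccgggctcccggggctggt
The GC box was found 4 times before MAOA and 7 times before MAOB, counting overlapping matches, and 42.6% of all windows held it. ATTA was found once before MAOA. TGACG was found in neither window. Windows of 5 of the 9 genes were used here.

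Across the 23 probe sets 15 had a mean above control and 8 below, with a range of -0.35 to 0.19 and a median absolute difference of 0.052, against 0.047 over all probe sets. By leading probe set 6 of 9 genes were above control and the median difference was 0.041, against -0.0094 and 44.4% above control over all 19775 genes. The groups did not overlap for 5 of the 9 leading probe sets, against 38.5% of all leading ones. The median deviation of the 23 probe sets from the control mean was 0.032 and -0.0089 on knockdown replicates 1 and 2, so the sign of the median differed between the knockdown arrays. Along the pathway the leading probe sets of the synthesis enzymes stood at 0.12 (TH), -0.012 (DDC), -0.35 (DBH) and -0.071 (PNMT), the vesicular transporters at 0.081 (SLC18A1) and 0.099 (SLC18A2), SLC6A2 at 0.090 and the oxidases at 0.032 (MAOA) and 0.041 (MAOB).

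**Figure D3:**
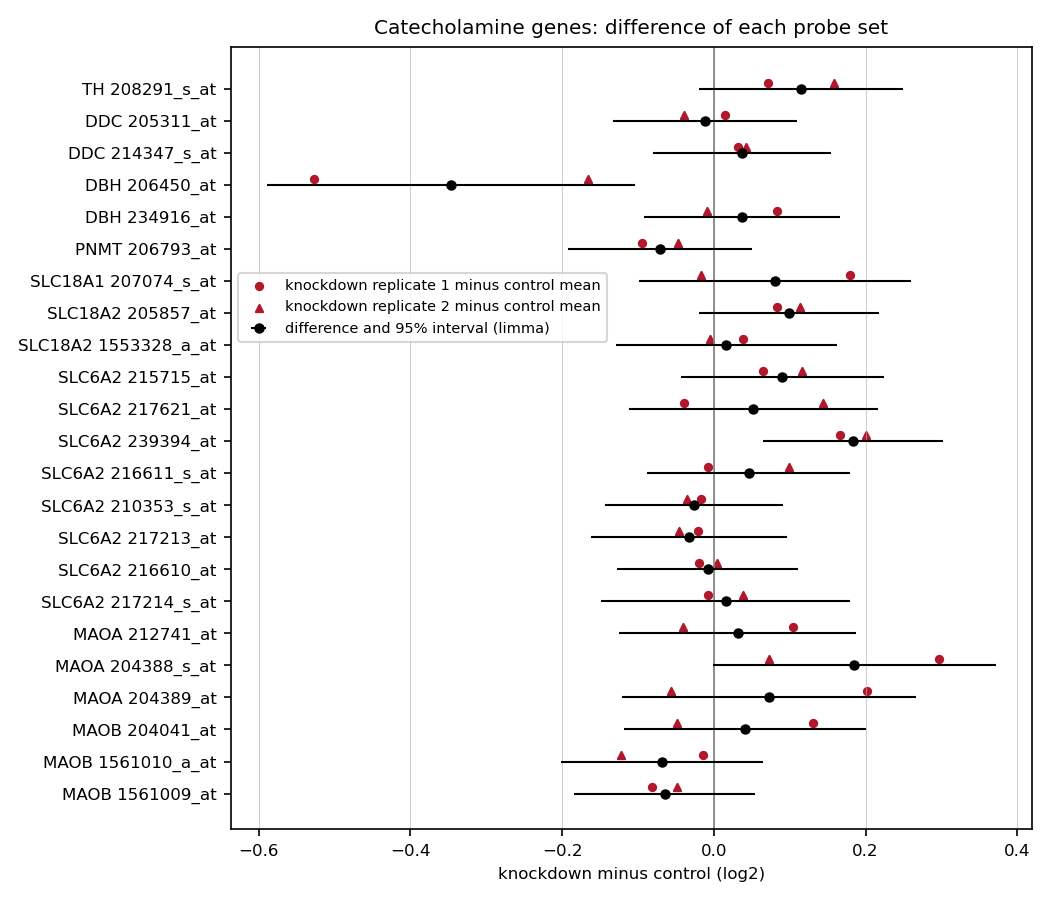
Knockdown minus control (x axis, log2) for each of the 23 probe sets: black points are the differences, bars their 95% intervals from limma, and red symbols each knockdown array minus the control mean. The interval leaves out 0 for DBH 206450_at and SLC6A2 239394_at, and neither passed after adjustment.

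Genes that supply the cofactors were also measured. TH needs tetrahydrobiopterin and DBH needs ascorbate. Of 7 measured genes of this supply, 4 were above and 3 below control, 0 passed (limma, also 0 at an unadjusted p under 0.05, where 7.96% of all leading probe sets had one), and the median difference was 0.0092. GCH1, the rate-limiting enzyme of tetrahydrobiopterin synthesis, was bright, at 12.72 and 12.70 in knockdown cells, against 12.66 and 12.75 in control cells. PCBD1, which helps recycle the cofactor, had the smallest p, with a difference of -0.11 ± 0.059 (SE). PTS and SPR, enzymes that follow GCH1, were at 0.096 and 0.079, and CYB561, named for its role since it regenerates ascorbate in the granule, was at -0.040.

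Genes that act after monoamine oxidase or transport amines by other routes gave small differences. Of 5 measured genes of further breakdown 2 were above and 3 below control, with a median of -0.028 and 0 passing (limma, 0 at an unadjusted p under 0.05). ALDH3A2, a fatty aldehyde dehydrogenase, had the smallest p at 0.14 ± 0.075 (SE), with knockdown replicate 1 highest, at 9.50 and 9.28 in knockdown cells, against 9.26 and 9.25 in control cells. ALDH2 and ADH5 were at -0.039 and 0.031. The list of 5 other transporters held SLC18A3, the vesicular acetylcholine transporter, at 0.027, so it was not one of monoamine transporters alone. Of these 5 genes, SLC18A3 included, 4 were above control, with a median of 0.026, and 1 had an unadjusted p under 0.05. That was SLC29A4, a plasma membrane monoamine transporter, at -0.17 ± 0.056 (SE; limma, adjusted p = 0.60), whose other probe set was at 0.015. SLC22A2, an organic cation transporter, was at 0.079, and SLC6A3, the dopamine transporter, was at 0.026, with values of 7.08 and 7.12 in knockdown cells, against 7.09 and 7.06 in control cells.

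Of 6 other amine enzymes, each dim, 5 were above control (83.3%, against 44.4% of all leading probe sets), with a median of 0.036. At an unadjusted p under 0.05 (limma) there was 1 (16.7%, against 7.96% of all leading probe sets). That was HDC, which makes histamine, at 0.13 ± 0.052 (SE; limma, adjusted p = 0.63). ASMT, of melatonin synthesis, and HNMT, which methylates histamine, followed at -0.054 and 0.058. The other probe set of ASMT, 210551_s_at, had the opposite sign, at 0.11. Of 13 measured adrenergic and dopamine receptors 10 were above control (76.9%, against 44.4% of all leading probe sets). Their median was 0.050, with 0 at an unadjusted p under 0.05 (limma). Of these, 11 were within the range of genes of other organs, DRD2 and ADRA2C being the exceptions, and DRD2 was at -0.041 and ADRA2C at -0.0038. Among receptors, ADRA1B, DRD3 and ADRA1A had the smallest p, at 0.082, 0.10 and 0.072. The noradrenergic markers had 2 of 10 above control and 8 below, a median of -0.052, and 2 at an unadjusted p under 0.05, both lower (20.0%, against 5.57% of all leading probe sets that were lower at this level). Those 2 were the granule proteins CHGA and CHGB. CHGA read 10.60 and 10.74 in knockdown cells, against 10.92 and 10.99 in control cells, and CHGB read 11.00 and 11.14 in knockdown cells, against 11.21 and 11.32 in control cells. The groups did not overlap for 4 of the 10 markers (40.0%), against 38.5% of all leading probe sets in either direction, a share near the background. All 4 were lower, while 4789 of all 19775 leading probe sets were lower without overlap. Neither CHGA nor CHGB passed (limma, adjusted p = 0.58 and 0.61).

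**Figure D4:**
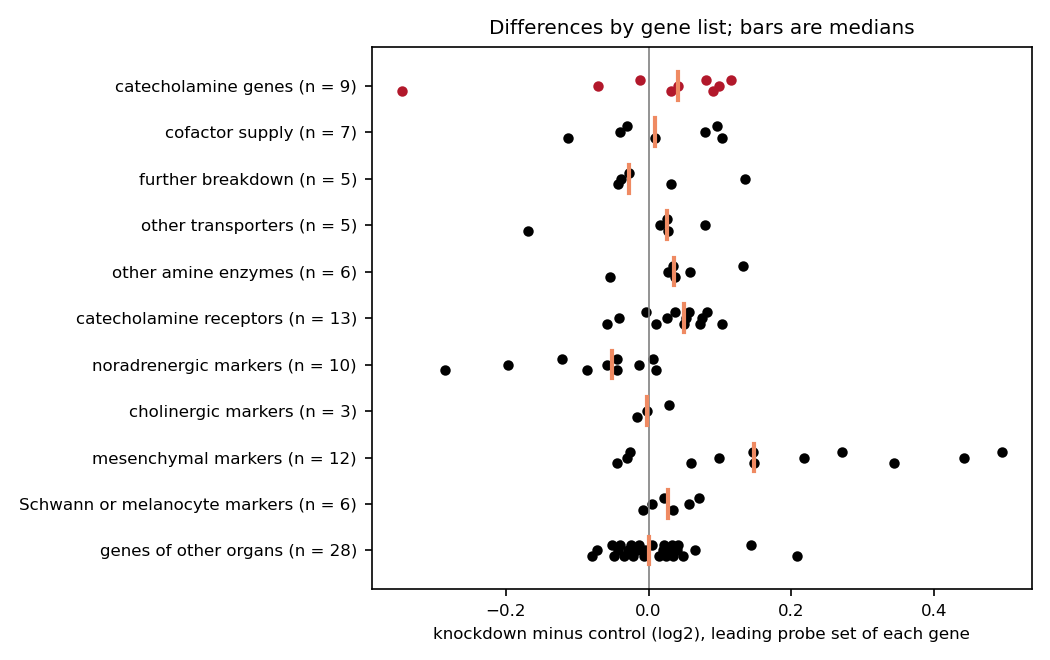
Knockdown minus control (x axis, log2) at the leading probe set of every measured gene of the catecholamine genes (red) and of the pathway and marker lists (black), with the list median as a bar. DBH lies apart at the left of the catecholamine genes, and the mesenchymal markers reach furthest to the right.

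The profile of DBH over the 4 arrays was compared with that of every other gene's leading probe set, as the root mean square distance between values centred on their own mean. The 5 closest of 19774 genes were SUSD2 (0.037), RIMBP2 (0.044), CBS (0.046), DACH1 (0.056) and DHRS11 (0.057). Each was lowest on knockdown replicate 1. SUSD2, which encodes a membrane protein with a sushi domain, read 6.91 and 7.37 in knockdown cells, against 7.49 and 7.52 in control cells. DACH1, a transcription factor gene, read 10.06 and 10.29 in knockdown cells, against 10.56 and 10.58 in control cells and had the largest difference of the 5, at -0.40. RIMBP2, a protein of presynaptic active zones, and CBS, an enzyme of cysteine synthesis, were at -0.26 and -0.30. These genes were picked for their likeness over 4 arrays, so their values are a description.

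**Figure D5:**
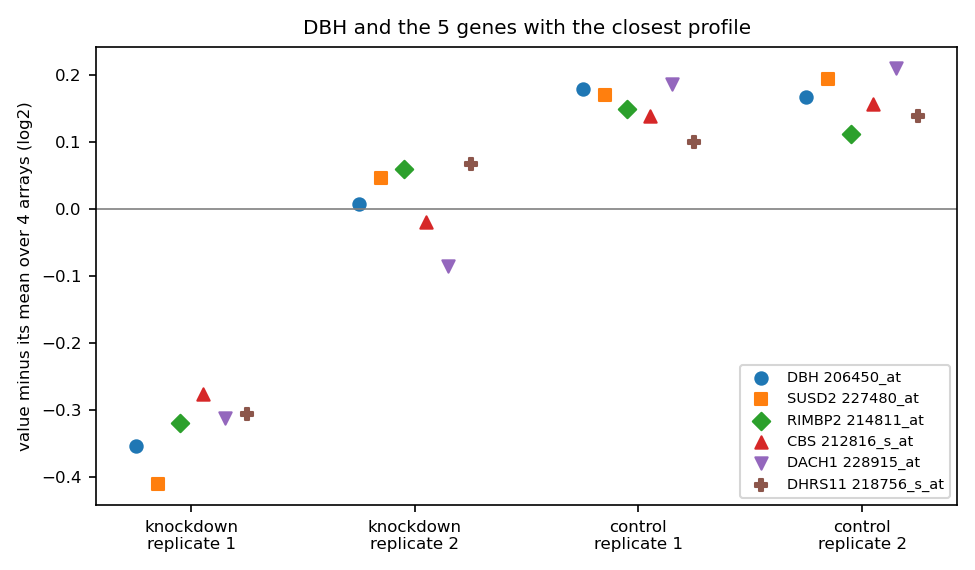
Value minus its mean over the 4 arrays (y axis, log2) for DBH 206450_at and the 5 genes with the closest profile, on each array. In all 6, knockdown replicate 1 is lowest, knockdown replicate 2 is in between and the control arrays are highest.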

How the data were processed

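Total RNA of 4 SH-SY5Y samples was amplified from 100 ng, labelled with biotin and hybridised, 1 array per sample, per the labels' protocols. The authors deposited log2 values per probe set. The submitters' processing notes name RMA and R 3.0.1 and give neither settings nor a genome build. Scanner files and detection calls were not used here.

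Of 54675 probe sets, 62 AFFX controls were left out. Of the 54613 tested, the platform annotation gave 41091 a single gene, 1801 several genes (left unnamed) and 11721 no entry. Limma 3.58.1 (lmFit and eBayes, R 4.3.3) compared knockdown with control over all 54613, without covariates, with Benjamini-Hochberg adjustment, a threshold of 0.05 and two-sided p-values. The script was tested on simulated data. Alternatives were a filter on dim probe sets, normalization, centring, variance models, weights per array, a block for the replicate number, dropping the _s_at and _x_at probe sets, and leaving out each array. The deviations of replicate 1 from its group mean correlated at 0.051 between the 2 groups across probe sets. With 2 arrays a group, those of replicate 2 mirror them and add nothing. No label pairs equal replicate numbers.

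The 9 genes, the lists and the rule for named genes (all probe sets of the 9 genes, the genes of each list with the smallest p, and the 5 closest profiles to the gene with the largest difference) were chosen with earlier results of these data known. CHGA, CHGB, SLC29A4 and HDC are named as list genes at an unadjusted p under 0.05. Figures were drawn with matplotlib 3.10.9.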

Additional observations from a re-analysis of the deposited data

How the results depend on the processing

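With 2 arrays a group, precision is limited by their number, and a dim signal compresses any change. Median centring moved all differences by -0.014. Under the alternatives that kept all 4 arrays, 144 of 145 differences of the probe sets kept their direction and their side of the threshold. The exception was DDC 205311_at, at 0.0044 after a second quantile normalization. With the replicate block 0 probe sets passed, against 1 without it, and none of the 23 changed its call (DBH 206450_at at -0.35, adjusted p = 0.71). An unadjusted p under 0.05 was found for 4278 probe sets in all and for 2 of the 23. The cause was not tested for any of these changes.

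Leaving out each array in turn, the probe sets that passed numbered from 1 to 1026, being 25 without knockdown replicate 1 and 1026 without knockdown replicate 2. Those among the 23 numbered from 0 to 2, the 2 being DBH 206450_at and MAOA 204388_s_at without knockdown replicate 2. The median difference of the 23 ran from -0.0089 to 0.032. DBH 206450_at ran from -0.53 to -0.17 and MAOA 204388_s_at from 0.073 to 0.30. The sign turned for 12 of the 23. Their ranges were -0.040 to 0.015 for DDC 205311_at, -0.0089 to 0.083 for DBH 234916_at, -0.017 to 0.18 for SLC18A1 207074_s_at, -0.055 to 0.088 for SLC18A2 1553328_a_at, -0.039 to 0.14 for SLC6A2 217621_at, -0.0074 to 0.099 for SLC6A2 216611_s_at, -0.078 to 0.013 for SLC6A2 217213_at, -0.025 to 0.0085 for SLC6A2 216610_at, -0.080 to 0.11 for SLC6A2 217214_s_at, -0.041 to 0.10 for MAOA 212741_at, -0.057 to 0.20 for MAOA 204389_at and -0.049 to 0.13 for MAOB 204041_at. In these fits a group's lone array is taken to vary as the other pair does.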

Other observations

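Probe sets of 1 gene outside the 9 also disagreed in size or sign. These were chosen after their values were seen. DRD2, the D2 dopamine receptor gene, was at -0.24 ± 0.082 (SE) at 216938_x_at, with values of 6.97 and 7.22 in knockdown cells, against 7.35 and 7.31 in control cells, while its leading probe set was at -0.041. ALDH3A2 was at 0.23 ± 0.083 (SE) at 210544_s_at, with values of 7.82 and 7.60 in knockdown cells, against 7.55 and 7.41 in control cells, and at 0.017 at 202054_s_at. Neither difference passed (limma, adjusted p = 0.61 for both). On DRD2 216938_x_at knockdown replicate 1 was the lowest array and on ALDH3A2 210544_s_at it was the highest, as for DBH and MAOA.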
